A study of Mus musculus with 36 samples.

Results

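The comparison concerns islets of wild-type (WT) mice fed a high-fat diet (WT HFD) against islets of WT mice fed a control diet (WT CD). Its members are the 4 WT HFD arrays (islet numbers 7, 8, 9 and 16 in the sample titles) and the 5 WT CD arrays (4, 5, 6, 14 and 15), which make 9 of the 18 gene-level arrays of the study. The other 9 arrays are from mice of either diet without functional Gnaz, the gene of the inhibitory G protein subunit Gαz (4 KO HFD and 5 KO CD). All mice were males of the C57BL/6N background, the KO lacks a protein-coding exon of Gnaz in the whole body, and each array holds the islets of 1 mouse. The labels give an age of 6 months, whereas the deposited protocol gives 37 to 40 weeks. The length of feeding that the methods state for the array experiment fits the age in the labels. Islets were freed by collagenase digestion and picked by hand under a stereomicroscope, so a preparation holds every islet cell type, with vessels and whatever exocrine tissue stayed attached.

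An islet is a cluster of hormone cells within the exocrine pancreas. Its beta cells sense glucose through metabolism and release insulin from dense-core granules, and on a fat-rich diet they are known to raise insulin output and, over time, their number. The surrounding acinar cells store digestive proenzymes in zymogen granules and release them into ducts when cholecystokinin or acetylcholine binds their receptors. Acinar transcripts are among the most abundant in the pancreas, and they are commonly found in hand-picked islets.

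The labelled tissue could be read from its markers. On the log2 scale of the arrays, Ppy read 14.33, Gcg 14.24, Sst 14.01 and Ins2 13.88 on average in WT HFD islets, against 14.30, 14.25, 14.05 and 13.81 in WT CD islets. Olfactory receptor genes, most of which are best known from olfactory neurons, give a measure of a dim reading: the median of 712 of them was 5.16 and their 95th percentile 7.52. Acinar markers were present as well. Cpa1, a carboxypeptidase of pancreatic juice, averaged 14.30 in WT HFD and 14.43 in WT CD islets, close to the highest value of any gene with 1 symbol on any WT array (14.45). Leukocyte and fibroblast markers set 2 arrays apart. Averaged over 19 leukocyte genes, WT HFD 16 reached 9.11 while WT HFD 7, 8 and 9 lay at 8.63 to 8.72, and WT CD 14 reached 9.70 while its 4 companions lay at 8.61 to 9.00. The fibroblast and stellate cell list (14 genes) averaged 9.01 on WT HFD 16 and 9.71 on WT CD 14. Pearson correlations across genes were 0.990 to 0.996 between arrays of 1 group and 0.987 to 0.995 between the groups. With no known repeat of a preparation to compare with, they cannot show whether any pair of arrays is a repeat. Genes are not independent replicates, and these values only rank distances.

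Few genes passed the test between WT HFD and WT CD islets, and the majority of those that did were acinar. Of 14860 genes with 1 symbol, 28 were called (limma over 17 arrays without KO HFD 11, adjusted p under 0.05 after Benjamini-Hochberg adjustment over all genes), which is 0.188% of those tested. The lower calls numbered 25 (0.168%) and the higher calls 3 (0.0202%). At an unadjusted p under 0.05, 4.49% of all genes were higher and 3.99% lower in WT HFD islets. Among the 25 lower genes, 18 were on the acinar lists. Of the 28, 15 differed by more than 2-fold, all of them lower and 11 of them acinar. Of the 44 genes with a difference of that size at any p, 19 were on the acinar lists. The median difference over all genes was 0.01 on the log2 scale, and the central bulk of genes ran from −0.21 (5th percentile) to 0.17 (95th percentile). The 9 arrays separated for all 28 genes, so that no WT HFD value fell within the WT CD range, and this held for 733 of all genes (4.93%). Fewer acinar cells and less acinar RNA per cell cannot be told apart in such bulk samples.

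**Figure D1:**
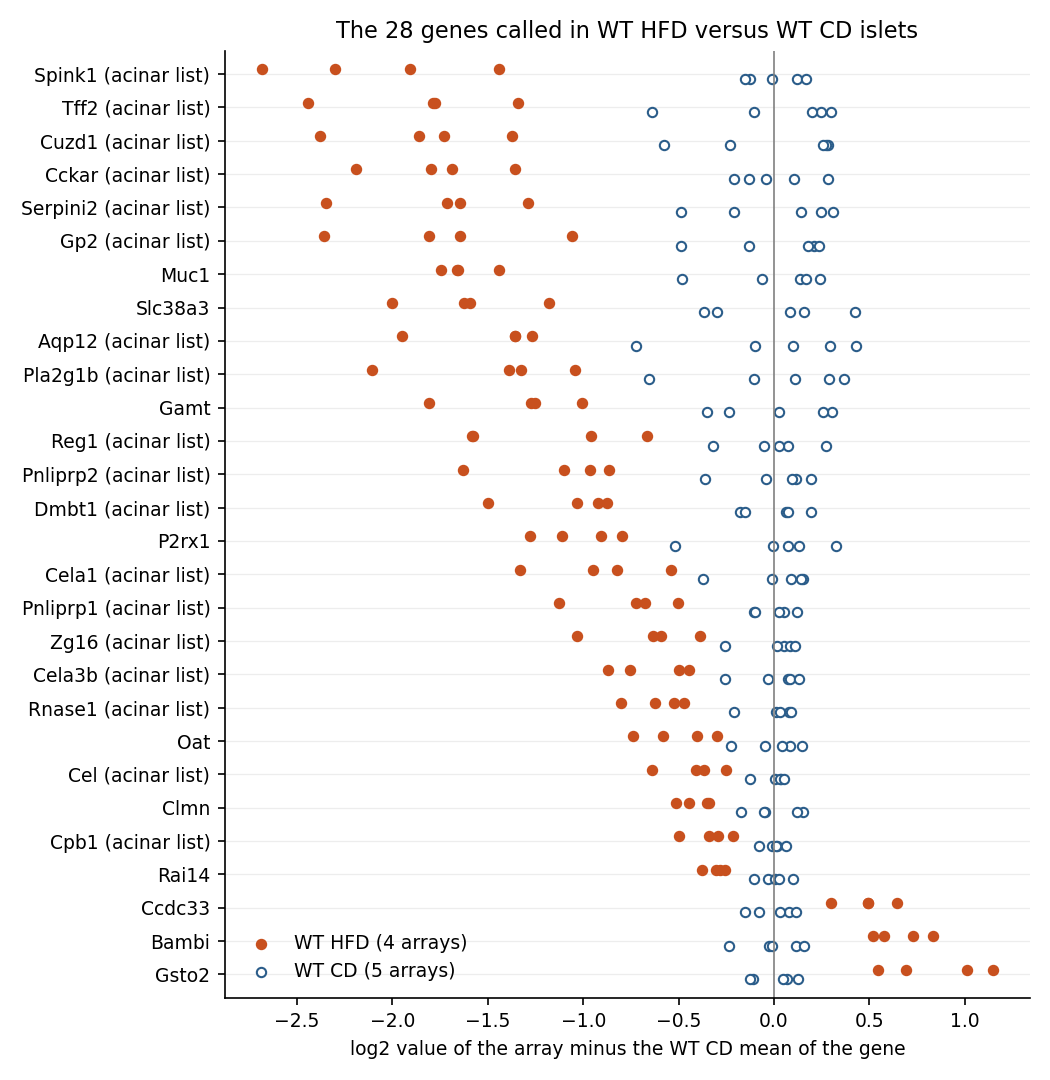
Each row is 1 of the 28 called genes and each point is 1 array, placed by its log2 value minus the gene's WT CD mean, with filled points for the 4 WT HFD and open points for the 5 WT CD arrays. The 25 lower genes have every filled point left of every open one, and Ccdc33, Bambi and Gsto2 have them to the right.

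The number of calls rested on single arrays. It was 0 when either WT HFD 9 or WT HFD 16 was dropped, and likewise when CD array 15, 6 or 5 was, with 966 to 1304 genes at an unadjusted p under 0.05 in limma. It was 2 without WT HFD 8, 17 without WT CD 4, and 42 without WT HFD 7. Arrays of KO islets enter through the shared estimate of spread: the count was 10 without KO CD 1, 17 without KO CD 3, 42 without KO CD 13 and 137 without KO HFD 10. Fitted on the 2 WT groups alone, limma called 177 genes (43 higher, 134 lower), among them all 28 and 27 of the 37 acinar genes. With array weights there were 439 calls, 31 of them acinar, so that most calls of these fits were outside the acinar lists. Every called gene kept its sign in each of these fits, and its difference had the same sign among islets numbered 1 to 11 and among those numbered 12 to 18, where WT HFD 16 is the only WT HFD array.

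The acinar genes were lower in mean in WT HFD islets with 1 exception. Of 37 measured genes in 5 lists, 18 were called lower, 0 higher and 19 were not called. A lower mean in WT HFD islets was seen for 36 of them, and for 6593 of all 14860 genes. Groups did not overlap for 31 of them, and for 733 of all genes (4.93%). Their median difference was −1.08, against 0.01 over all genes, and single genes ranged from −3.16 to 0.18. The mean of the 37 genes was 11.16, 11.07, 10.96 and 10.68 in WT HFD islets 7, 8, 9 and 16, and 11.83, 12.14, 12.12, 11.78 and 12.09 in WT CD islets 4, 5, 6, 14 and 15. The highest WT HFD mean thus lay below the lowest WT CD mean, and WT HFD 16 and WT CD 14 were the lowest of their groups. The difference of the list means was −1.02, or −0.98 without WT CD 14 and WT HFD 16. It was −0.96 among islets numbered 1 to 11 and −1.26 among those numbered 12 to 18.

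**Figure D2:**
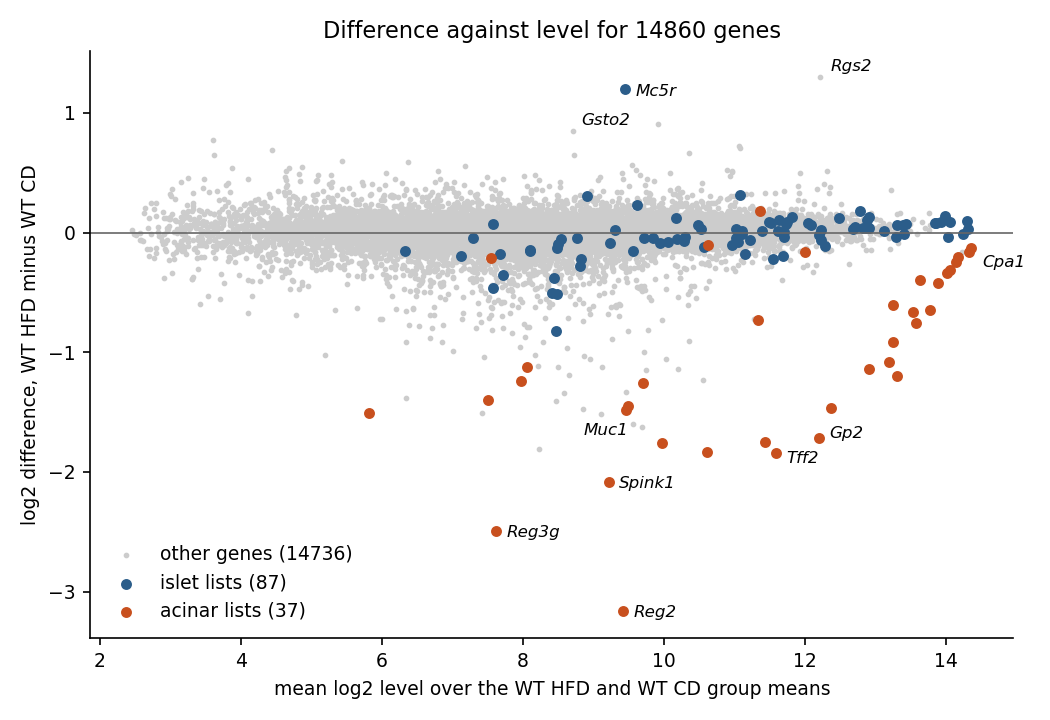
Each point is 1 of 14860 genes, with its mean log2 level across and its log2 difference, WT HFD minus WT CD, upward. Most acinar genes form an arc below the other genes, from Reg2 at −3.16 to Cpa1 at −0.13 at the bright end, while most islet genes lie near 0, with Mc5r at 1.20 and Ptger3 at −0.82 the farthest from it.

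The zymogen granule and other secretory proteins of acinar cells had the lowest median of the acinar lists, −1.75 over 11 genes, with 8 called lower. Spink1, which encodes a trypsin inhibitor stored with the proenzymes, was the called gene with the greatest fall. It read 8.82, 8.35, 7.96 and 7.58 in WT HFD islets, against 10.14, 10.25, 10.38, 10.11 and 10.43 in WT CD islets, in the order of islet numbers that is used for all such values. The WT HFD arrays were spread widely (SD 0.53, n = 4), with WT HFD 16 lowest, whereas the WT CD arrays lay close together (SD 0.14, n = 5), and the groups did not overlap. Spink1 was 4.24-fold lower (log2 −2.09, SE 0.34, limma adjusted p = 0.0243).

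Tff2 encodes a trefoil peptide of mucous secretions. Its values were 11.17, 10.72, 10.73 and 10.07 in WT HFD islets and 12.41, 12.76, 12.71, 11.87 and 12.81 in WT CD islets. The 2 lowest values of the groups were again WT HFD 16 and WT CD 14, without overlap. The difference of −1.84 (SE 0.24) had the smallest adjusted p of all genes (limma, 0.0157), and Tff2 remained called in 12 of the 17 fits that each left out 1 array. Gp2, the major glycoprotein of the zymogen granule membrane, had values of 12.00, 11.25, 11.41 and 10.70 in WT HFD islets and 12.92, 13.26, 13.24, 12.57 and 13.29 in WT CD islets. Here WT HFD 7 came nearest to the WT CD arrays, and the groups did not overlap. Gp2 was lower by 3.29-fold (log2 −1.72, SE 0.28, limma adjusted p = 0.0243).

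Several further granule and secretory genes fell, by differing amounts. Cuzd1, a zona pellucida-domain protein of zymogen granules, fell by 1.84 on the log2 scale (limma adjusted p = 0.0294), and Serpini2, a serpin made by acinar cells, fell by 1.75 (0.0243). Dmbt1, a scavenger-receptor protein known in mouse zymogen granules as muclin, fell by 1.08 (0.0243), and the zymogen granule lectin Zg16 by 0.66 (0.0361). Reg1, a lectin-like secreted protein that is induced in injured pancreas, read 12.33, 13.25, 12.95 and 12.33 in WT HFD islets and 13.59, 13.99, 14.18, 13.86 and 13.94 in WT CD islets. It fell by 1.20 (limma adjusted p = 0.0292), but its adjusted p was 0.102 when WT CD 14, WT HFD 16 and KO CD 13 were left out. Its relatives varied far more between mice. Reg2 read 7.58, 9.24, 7.50 and 7.03 in WT HFD islets and 9.13, 10.58, 12.80, 11.90 and 10.59 in WT CD islets, which overlap at WT HFD 8, and its difference of −3.16 (SE 1.13) was not called (limma adjusted p = 0.381). Reg2 is named here because its difference was the largest of all genes in size, a choice made after its values were seen. Reg3g, an antibacterial lectin, read 5.90 to 7.07 in WT HFD and 8.08 to 9.84 in WT CD islets, a difference of −2.49 (SE 0.82) that did not pass either (limma adjusted p = 0.323), although it did in the fit over the 2 WT groups (0.0069). The WT HFD values of Reg3g were dim, below the olfactory receptor 95th percentile of 7.52.

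All 5 measured lipase genes had lower means and groups that did not overlap, with a median of −0.76 and 4 called. Pla2g1b, the pancreatic phospholipase A2, read 12.06, 11.72, 11.78 and 11.00 in WT HFD islets and 13.00, 13.47, 13.39, 12.45 and 13.21 in WT CD islets. WT HFD 7 and WT CD 14 were the closest arrays of the 2 groups. Pla2g1b fell by 1.47 (SE 0.22, limma adjusted p = 0.0243). The lipase-related proteins Pnliprp2 and Pnliprp1 fell by 1.14 and 0.76, and the bile salt-activated lipase Cel by 0.42 (limma adjusted p = 0.0431). Clps, the cofactor of pancreatic lipase, differed by −0.20 (SE 0.06, limma adjusted p = 0.216).

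The proteases had a smaller median, −0.34 over 7 genes, of which 3 were called and all 7 had groups that did not overlap. The elastase Cela1 read 13.16, 12.88, 12.76 and 12.37 in WT HFD islets and 13.69, 13.85, 13.79, 13.33 and 13.85 in WT CD islets. It fell by 0.91 (SE 0.15, limma adjusted p = 0.0243), the elastase Cela3b by 0.64 (0.0398) and the carboxypeptidase Cpb1 by 0.34 (0.0465). Ctrl, a chymotrypsin-like protease, and Prss2, an anionic trypsinogen, differed by −0.31 and −0.40 without passing (limma adjusted p = 0.0627 and 0.0979). Rnase1, the pancreatic ribonuclease, fell by 0.60 (limma adjusted p = 0.0399). Amy1, the amylase gene of salivary gland and liver, was the only amylase with a single-symbol reading and showed 7.23 to 7.96 in WT HFD and 8.19 to 9.01 in WT CD islets (limma adjusted p = 0.327; 0.0202 over the 2 WT groups).

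Among acinar genes, the brighter ones had the smaller differences. The top was taken as the highest value of a gene with 1 symbol on a WT array. The 16 acinar genes whose WT CD mean lay within 1 log2 unit of it had a median difference of −0.51 and none beyond −1.20. The other 21 had a median of −1.47. Whether the bright readings were limited by the range of the array was not tested.

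Genes of acinar identity and machinery had a median of −1.25 over 12 genes. Cckar, the cholecystokinin receptor through which acinar cells are stimulated to secrete in rodents, read 9.50, 9.06, 9.17 and 8.67 in WT HFD islets and 10.65, 11.14, 10.82, 10.96 and 10.73 in WT CD islets. More than 1 log2 unit separated the groups, and Cckar fell by 1.76 (SE 0.33, limma adjusted p = 0.0399). The acinar water channel Aqp12 fell by 1.48 (limma adjusted p = 0.0406). Ptf1a, Rbpjl and Nr5a2, transcription factors of the acinar program, had separate groups but were not called in the fit over 4 groups. Ptf1a, the DNA-binding subunit of the complex that drives digestive enzyme genes, read 6.64 to 7.09 in WT HFD and 7.55 to 8.46 in WT CD islets (log2 −1.40, SE 0.38, limma adjusted p = 0.209). Its WT HFD values were dim, below the olfactory receptor 95th percentile of 7.52. Its partner Rbpjl read 8.91 to 9.22 in WT HFD and 10.15 to 10.49 in WT CD islets (−1.26, SE 0.29, 0.118), and the nuclear receptor Nr5a2 7.22 to 7.66 in WT HFD and 8.35 to 8.79 in WT CD islets (−1.24, SE 0.26, 0.0879; 0.0010 in the fit over the 2 WT groups). Bhlha15, a transcription factor of serous secretory cells that is on the same acinar list, overlapped between the groups (−0.11, SE 0.13). Rab3d, a small GTPase of secretory granules, was the only acinar-list gene with a higher mean in WT HFD islets (0.18, SE 0.07, limma adjusted p = 0.434).

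The Ptf1a complex binds a bipartite DNA element made of an E-box and a TC-box, so the promoters of the acinar genes were searched for that pair of letters. The windows are RefSeq's, on build GRCm38.p6, from 250 bases before to 50 bases after each gene's start. The pair was CANNTG, on either strand since it reads alike on both, and TTTCCC or its reverse complement GGGAAA, not overlapping and with centres at most 25 bases apart. Of the 37 acinar genes 29 had a window, and 4 of these (13.8%) held the pair, against 1404 of 27025 genes (5.2%). Windows of Spink1, Tff2, Zg16, Dmbt1, Cckar, Clps, Erp27 and Tmed11 were not analysed here. The 4 stretches below are from all 4 acinar genes that held the pair, each of them a digestive enzyme gene. The Cpa1 window held 2 pairs, of which 1 is marked. Each runs 5′ to 3′ along its gene over 100 bases, and capitals mark the 2 boxes.
Cela1, chr15:100687972-100688071, minus strand: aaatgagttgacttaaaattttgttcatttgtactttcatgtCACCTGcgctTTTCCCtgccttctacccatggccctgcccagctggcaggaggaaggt
Cel, chr2:28563427-28563526, minus strand: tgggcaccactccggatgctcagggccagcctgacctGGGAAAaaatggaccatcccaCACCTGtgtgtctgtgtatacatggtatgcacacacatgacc
Ctrb1, chr8:111691158-111691257, minus strand: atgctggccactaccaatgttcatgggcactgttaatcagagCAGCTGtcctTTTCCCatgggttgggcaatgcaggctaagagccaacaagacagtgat
Cpa1, chr6:30639118-30639217, plus strand: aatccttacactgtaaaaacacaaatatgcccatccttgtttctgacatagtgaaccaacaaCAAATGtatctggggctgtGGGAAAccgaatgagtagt
In Cela1 and Ctrb1 the boxes start 10 bases apart with the E-box first, in Cel 21 bases apart with the TC-box first and inverted, and in Cpa1 19 bases apart with the TC-box inverted. Cela1 and Cel were called (−0.91 and −0.42), while Ctrb1 and Cpa1, which are among the brightest genes of the arrays, differed by −0.17 and −0.13 without passing (limma adjusted p = 0.299 and 0.384). The matches are a description of the letters and say nothing of binding in these islets.

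A further 7 genes fell that are on none of the acinar lists. Muc1, an apical mucin of duct and acinar epithelium, read 9.07, 8.85, 8.85 and 8.76 in WT HFD islets and 10.02, 10.75, 10.65, 10.45 and 10.67 in WT CD islets. The WT HFD arrays were close together and nearly 1 log2 unit below the lowest WT CD array. Muc1 fell by 1.63 (SE 0.30, limma adjusted p = 0.0403). Slc38a3, a glutamine transporter, fell by 1.60 (0.0465), and Gamt, which makes creatine from guanidinoacetate, by 1.34 (0.0398). P2rx1, an ATP-gated cation channel, fell by 1.02 (0.0243) and was called in 11 of the 17 fits that left out 1 array.

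The remaining 3 fell by less. Oat, ornithine aminotransferase, is 1 of 11 genes listed as low in mature beta cells, and it read 8.26, 7.92, 8.08 and 8.36 in WT HFD islets and 8.43, 8.74, 8.61, 8.81 and 8.70 in WT CD islets. WT HFD 16 and WT CD 4 lay closest, without overlap. Oat fell by 0.51 (SE 0.10, limma adjusted p = 0.0465), Clmn, a membrane protein that binds actin, by 0.41 (0.0375) and the actin-associated Rai14 by 0.31 (0.0391). The mean of the acinar digestive enzymes moved with these genes (12.69 to 13.16 in WT HFD and 13.35 to 13.68 in WT CD islets). With that mean as a covariate, no gene was called (628 at an unadjusted p under 0.05 in limma). Since the mean does not overlap between the diet groups, it stands in for diet in part, and the median SE over all genes was 0.129 with it, against 0.0741 without it. A loss of calls was therefore close to built into that fit. The differences were then −0.32 (SE 0.36) for Muc1, −0.03 (SE 0.26) for Slc38a3, −0.06 (SE 0.19) for Gamt, −0.19 (SE 0.14) for P2rx1, −0.38 (SE 0.17) for Oat, −0.32 (SE 0.13) for Clmn and −0.19 (SE 0.09) for Rai14.

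The genes that rose numbered 3. Gsto2, an omega-class glutathione transferase with dehydroascorbate reductase activity, read 8.83, 9.44, 9.30 and 8.98 in WT HFD islets and 8.18, 8.35, 8.16, 8.33 and 8.41 in WT CD islets. The lowest WT HFD array, WT HFD 7, was still above every WT CD array. Gsto2 rose 1.80-fold (log2 0.85, SE 0.13, limma adjusted p = 0.0243), by 0.96 among islets numbered 1 to 11 and by 0.61 among those numbered 12 to 18. Bambi, a pseudoreceptor that dampens TGF-β and BMP signaling, read 10.54, 10.85, 10.75 and 10.60 in WT HFD islets and 9.78, 10.14, 9.99, 10.01 and 10.18 in WT CD islets. It rose 1.59-fold (log2 0.66, SE 0.13, limma adjusted p = 0.0464) but was called in only 5 of the 17 fits that left out 1 array, and not after median centring (adjusted p = 0.0781). Ccdc33, which encodes a coiled-coil protein, read 8.23, 8.57, 8.42 and 8.42 in WT HFD islets and 7.85, 8.01, 7.78, 8.05 and 7.96 in WT CD islets. Its rise of 0.48 (SE 0.08, limma adjusted p = 0.0299) was not called after median centring either (0.0702). With the acinar enzyme mean as a covariate the differences were 0.66 (SE 0.23) for Gsto2, 0.49 (SE 0.22) for Bambi and 0.31 (SE 0.14) for Ccdc33.

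**Figure D3:**
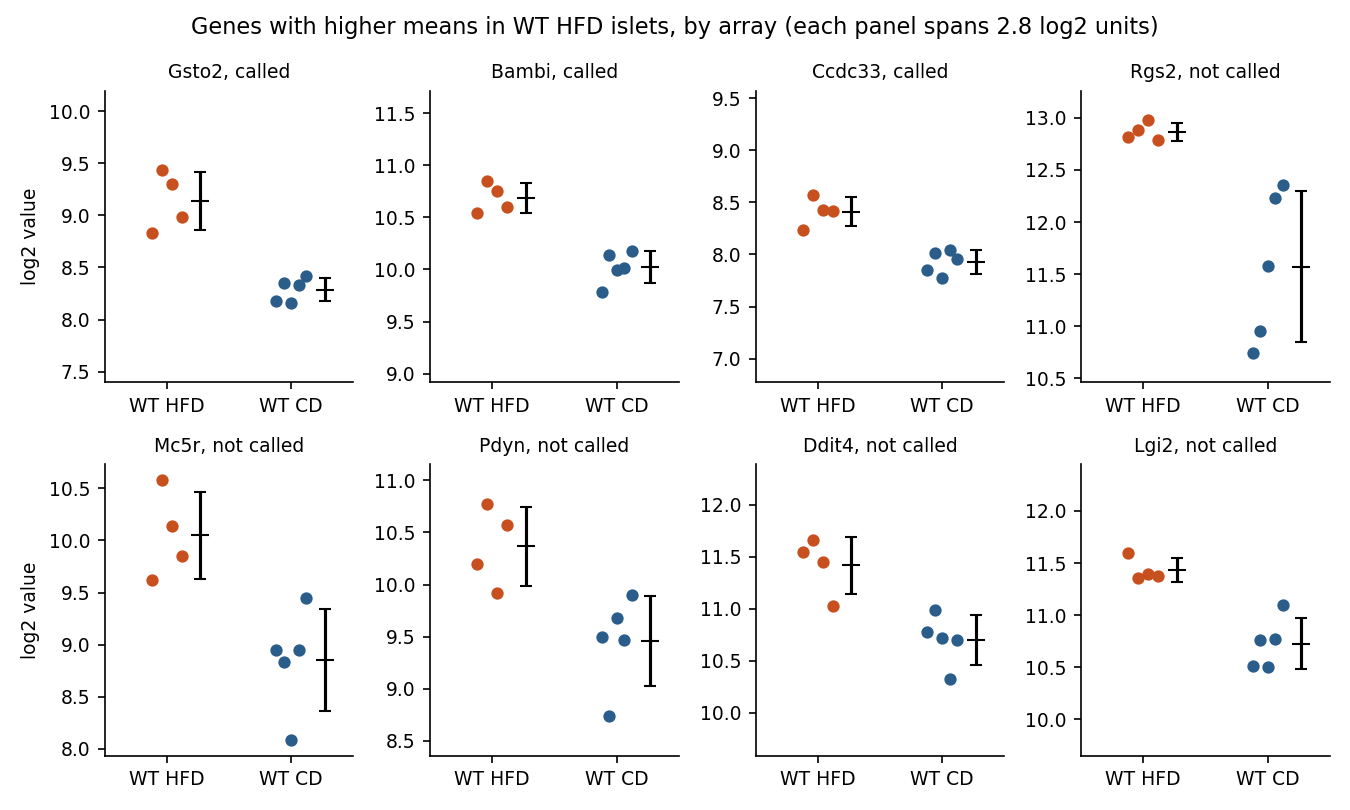
Log2 values by array for 8 genes with higher means in WT HFD islets (left in each panel) than in WT CD islets (right), with points for arrays and bars for mean and SD. No WT HFD point falls within the WT CD range in any panel, but only Gsto2, Bambi and Ccdc33 were called, and Rgs2 runs from 10.74 to 12.35 among WT CD arrays.

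Among uncalled genes, Rgs2, Mc5r and Pdyn had the largest higher means with separate groups. Rgs2, a GTPase-activating protein that shortens signaling of Gq, read 12.81, 12.88, 12.98 and 12.79 in WT HFD islets and 10.74, 10.95, 11.57, 12.23 and 12.35 in WT CD islets. The WT HFD arrays were nearly level, whereas WT CD 14 and 15 lay well above WT CD 4, 5 and 6. The difference of 1.30 (SE 0.30) had a limma adjusted p of 0.129. Mc5r, a melanocortin receptor coupled to Gs, read 9.62, 10.58, 10.14 and 9.85 in WT HFD islets and 8.95, 8.83, 8.08, 8.95 and 9.45 in WT CD islets (1.20, SE 0.42, limma adjusted p = 0.379). Pdyn, the prodynorphin opioid precursor, differed by 0.91 (SE 0.33, 0.390), with WT HFD 9 at 9.92 and WT CD 15 at 9.90 almost touching.

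Ddit4, an inhibitor of mTORC1 induced by stress, read 11.54, 11.66, 11.45 and 11.03 in WT HFD islets and 10.77, 10.99, 10.71, 10.32 and 10.70 in WT CD islets (0.72, SE 0.20, limma adjusted p = 0.213). Lgi2, a secreted leucine-rich repeat protein, differed by 0.70 (SE 0.28, 0.456), and Arrdc4, an arrestin-fold gene that glucose induces in beta cells, by 0.56 (SE 0.13, 0.129). With the acinar enzyme mean as a covariate the differences were 0.81 (SE 0.36) for Ddit4, 0.002 (SE 0.45) for Lgi2 and 0.62 (SE 0.23) for Arrdc4. Defb39 and Slc22a13b complete the 10 largest higher means with separate groups, at 0.77 and 0.60, but their WT HFD means of 3.99 and 5.74 lay in the range of the olfactory receptors. In the fit over the 2 WT groups alone, Arrdc4, Lgi2, Ddit4 and Slc22a13b were called (limma adjusted p = 0.0176, 0.0177, 0.0449 and 0.0363), whereas Rgs2, Mc5r and Pdyn were not. On the lower side, the 10 largest differences with separate groups held 8 called genes, Reg3g and Itih4. Itih4, a plasma protein of the inter-alpha-trypsin inhibitor family, read 6.89 to 7.74 in WT HFD and 8.03 to 10.35 in WT CD islets (−1.80, SE 0.56, limma adjusted p = 0.268).

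Most islet genes differed little. Of 87 measured islet genes, Oat was the only one called (1.15%, against 0.188% of all genes), and the median difference was −0.01. At an unadjusted p under 0.05 in limma, 5 were higher and 9 lower, where 4.49% and 3.99% of all genes were. Groups did not overlap for 14 of the 87, and for 4.93% of all genes. Confidence intervals lay within 0.5 log2 units of 0 for 74 of the 87, with bounds from −1.39 (Ptger3) to 2.09 (Mc5r). For the 45 beta cell genes (transcription factors and maturity genes, glucose sensing, and granules), 0 were called (4 at an unadjusted p under 0.05; 0 in the fit over the 2 WT groups) and all 45 confidence intervals lay within 0.5 log2 units of 0. Their mean was 11.73, 11.62, 11.63 and 11.58 in WT HFD islets and 11.64, 11.63, 11.64, 11.56 and 11.62 in WT CD islets, which overlap. The intervals bound differences of array readings and do not show that the genes were the same. Some islet genes, such as Chga and G6pc2, read as bright as the brightest acinar genes. Whether the range of the array limited their differences was not tested.

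The hormone genes named here had values near the top of the scale, and whether the range of the array limited their differences was not tested. Ins2, the insulin gene with a single-symbol reading, read 13.95, 13.86, 13.86 and 13.87 in WT HFD islets and 13.81, 13.83, 13.82, 13.79 and 13.81 in WT CD islets. The groups did not overlap, but they lay 0.08 apart (SE 0.04, 95% interval −0.003 to 0.155, limma adjusted p = 0.613). Iapp, the amyloid peptide co-released with insulin, had a difference of 0.09 (SE 0.04, 0.576), also without overlap. For Gcg, Sst and Ppy the differences were −0.01, −0.03 and 0.03, with intervals of −0.11 to 0.09, −0.22 to 0.15 and −0.09 to 0.15.

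The transcription factors that maintain beta cells had a median of −0.02 over 14 genes, with 0 at an unadjusted p under 0.05. Pdx1 read 11.88, 11.64, 11.62 and 11.59 in WT HFD islets and 11.89, 11.83, 11.76, 11.49 and 11.62 in WT CD islets. Mafa, an activator of the insulin gene, had the lowest value of the list, −0.18 (95% interval −0.43 to 0.07). Nkx6-1 differed by 0.02 (−0.15 to 0.19) and the maturity marker Ucn3 by −0.01 (−0.12 to 0.11). Glucose sensing genes had a median of 0.04, and the glucose transporter Slc2a2 differed by 0.04 (−0.19 to 0.26). G6pc2, the islet glucose-6-phosphatase, read 14.03 to 14.09 in WT HFD and 13.87 to 13.96 in WT CD islets (0.14, limma adjusted p = 0.642), and the calcium channel subunit Cacna1d 10.48 to 10.56 in WT HFD and 10.58 to 10.67 in WT CD islets (−0.12, 0.511). With the acinar enzyme mean as a covariate the differences were −0.09 (SE 0.11) for G6pc2 and −0.24 (SE 0.08) for Cacna1d.

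Granule and exocytosis genes had the highest median of the beta cell lists, 0.06 over 20 genes. Higher means in WT HFD islets were seen for 17 of the 20, and for 8267 of all 14860 genes. Chga, a granin of the dense core, read 14.09 to 14.13 in WT HFD and 14.00 to 14.05 in WT CD islets (0.09, SE 0.04, limma adjusted p = 0.498). Ptprn, the granule membrane protein IA-2, read 12.81 to 12.95 in WT HFD and 12.63 to 12.73 in WT CD islets (0.18, SE 0.08, 0.494). The fusion protein Snap25 read 12.95 to 13.00 in WT HFD and 12.76 to 12.89 in WT CD islets (0.13, SE 0.06, 0.543). These 3 genes had separate groups, with differences below those of any called gene.

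Of 17 receptors and Gi-family subunits, 0 were called (1 higher, Mc5r, and 1 lower, Ptger3, at an unadjusted p under 0.05). Ptger3, the inhibitory prostaglandin EP3 receptor, read 8.10, 8.20, 8.14 and 7.76 in WT HFD islets and 8.67, 9.16, 9.08, 8.36 and 9.11 in WT CD islets. The groups did not overlap, and WT HFD 16 and WT CD 14 were the lowest of each. Its difference of −0.82 (SE 0.27, limma adjusted p = 0.323) was called in the fit over the 2 WT groups (0.0464) and was 0.37 (SE 0.31) with the acinar enzyme mean as a covariate. The incretin receptor Glp1r differed by 0.08 (95% interval −0.03 to 0.20) and Gipr by −0.05 (−0.24 to 0.15). Gnaz read 11.10 in WT HFD and 11.11 in WT CD islets (−0.01, −0.15 to 0.13).

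Alpha and delta cell genes had a median of −0.19 over 7 genes, with 3 lower at an unadjusted p under 0.05, where 3.99% of all genes were. Hhex, a delta cell factor, read 8.74, 7.96, 7.95 and 8.24 in WT HFD islets and 8.64, 9.02, 8.59, 8.86 and 8.57 in WT CD islets (−0.52, SE 0.17, limma adjusted p = 0.302), with WT HFD 7 inside the WT CD range. With the acinar enzyme mean as a covariate the Hhex difference was −0.43 (SE 0.29). The arginine transporter Slc7a2 read 11.52 to 11.75 in WT HFD and 11.72 to 11.86 in WT CD islets (−0.19, SE 0.05, 0.216). Of the genes low in mature beta cells, 10 of 11 had lower means in WT HFD islets, as had 6593 of all 14860 genes. Among them the signal transducer Smad3 differed by −0.38 (SE 0.10, limma adjusted p = 0.175; 0.0369 over the 2 WT groups) and hexokinase 2 (Hk2) by −0.19 (SE 0.07, 0.381), both without overlap.

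**Figure D4:**
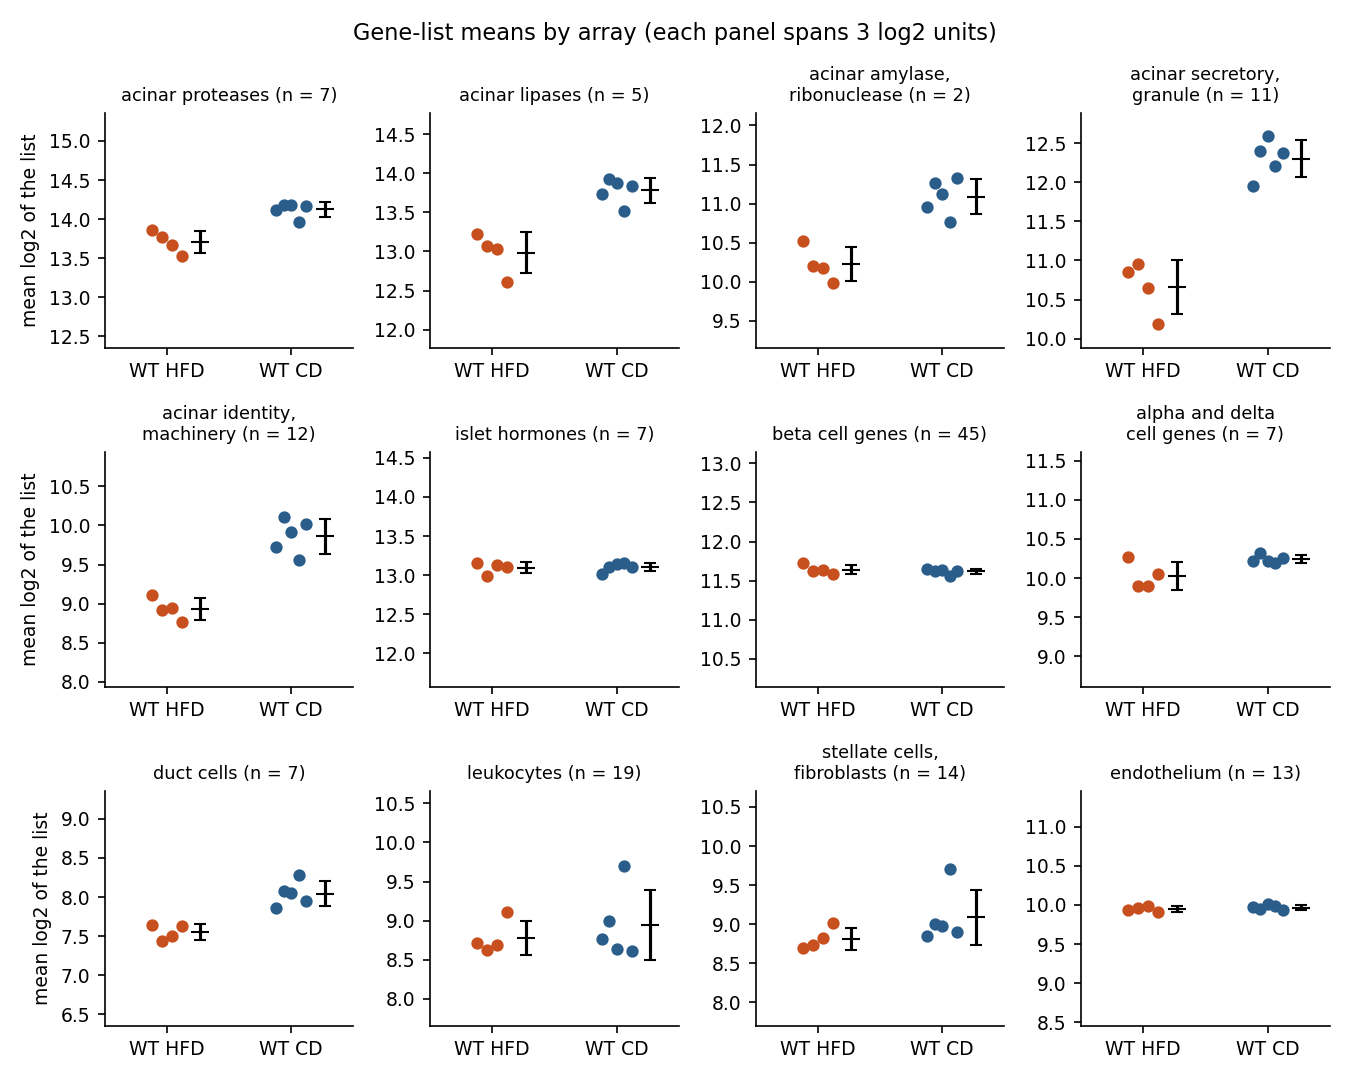
Mean log2 value of each gene list by array, WT HFD (left) and WT CD (right) in each panel, with points for arrays and bars for mean and SD; n is the number of genes. The acinar and duct lists separate the groups, the hormone and beta cell lists overlap, and WT CD 14 stands high for leukocytes (9.70) and stellate cells and fibroblasts (9.71).

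Of 243 measured genes in pathways tied to diet, 2 were called (0.823%, against 0.188% of all genes). The 2 were Gsto2 and Bambi. Their lists were chosen with earlier results of these data known, so the higher share is a description and no support. Glutathione and antioxidant genes had Gsto2 as their 1 call of 28 and a median of −0.02. Catalase (Cat) read 9.87 to 10.13 in WT HFD and 10.40 to 10.79 in WT CD islets (−0.60, SE 0.14, limma adjusted p = 0.129; 0.0114 over the 2 WT groups), and the endoplasmic reticulum peroxidase Prdx4 8.28 to 8.65 in WT HFD and 8.84 to 9.53 in WT CD islets (−0.74, SE 0.18, 0.158; 0.0369 over the 2 WT groups). With the acinar enzyme mean as a covariate these became −0.16 (SE 0.21) and 0.07 (SE 0.21). Since that mean stands in for diet in part, what such values owe to acinar content was not tested. TGF-β and BMP signaling had Bambi as its 1 call of 34. Bmp7, a ligand of that pathway, read 7.87 to 8.21 in WT HFD and 8.88 to 9.53 in WT CD islets (−1.19, SE 0.30, limma adjusted p = 0.167). It was called over the 2 WT groups (0.0035) and with array weights (0.0094), and differed by 0.19 (SE 0.32) with the covariate. Inhba, the activin A subunit, read 7.98 to 8.42 in WT HFD and 7.85 to 7.95 in WT CD islets (0.29, SE 0.08, 0.211). With the covariate the Inhba difference was 0.28 (SE 0.14).

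Genes of the unfolded protein and stress response had 0 calls of 23 and 6 lower at an unadjusted p under 0.05, where 3.99% of all genes were. Sel1l, an adaptor of endoplasmic reticulum-associated degradation, read 11.44 to 11.52 in WT HFD and 11.65 to 12.01 in WT CD islets (−0.40, SE 0.13, limma adjusted p = 0.325; 0.0250 over the 2 WT groups), and the sensor Ern1 11.51 to 11.62 in WT HFD and 11.64 to 11.82 in WT CD islets (−0.16, SE 0.05, 0.252). Atf3 had the largest difference of the list, −0.73. It was not called over the 2 WT groups (limma adjusted p = 0.200), but was with array weights (0.0290) and with numbers 1 to 11 and 12 to 18 as a block (0.0465). With the covariate, Sel1l differed by 0.14 (SE 0.16), Ern1 by −0.06 (SE 0.08) and Atf3 by −0.20 (SE 0.38).

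Fat metabolism showed no call. Fatty acid oxidation and PPAR targets had a median of 0.01 over 18 genes, with the lipid-binding protein Fabp3 at 8.02 to 8.43 in WT HFD and 7.19 to 8.06 in WT CD islets (0.48, SE 0.18, limma adjusted p = 0.415). Cholesterol and fatty acid synthesis had a median of 0.08 over 23 genes. Scd1, a desaturase, read 8.74, 8.79, 8.91 and 9.33 in WT HFD islets and 9.50, 9.67, 9.40, 9.92 and 9.33 in WT CD islets (−0.62, SE 0.32, limma adjusted p = 0.641).

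Cell cycle genes had 0 calls of 25, 0 at an unadjusted p under 0.05 and a median of 0.04. Mki67, a marker of dividing cells, read 5.25, 5.66, 5.54 and 6.72 in WT HFD islets and 5.55, 5.74, 5.62, 6.58 and 5.97 in WT CD islets, so that the highest array of each group was the one with the most leukocyte signal. All of these Mki67 values were dim, below the olfactory receptor 95th percentile of 7.52. Its difference was −0.10 (95% interval −0.75 to 0.55). The compensation list, which includes insulin signaling genes, had a median of 0.01 over 17 genes. Of these, 3 were lower at an unadjusted p under 0.05 in limma, where 3.99% of all genes were. Grb10, an adaptor that inhibits the insulin receptor, read 9.37 to 9.72 in WT HFD and 9.80 to 9.87 in WT CD islets (−0.28, SE 0.07, limma adjusted p = 0.131). The insulin receptor Insr read 9.78 to 9.91 in WT HFD and 9.93 to 10.06 in WT CD islets (−0.16, SE 0.06, 0.433). Oxidative phosphorylation, clock, immediate early and interferon genes had 0 calls among 26, 14, 19 and 16 genes, and medians of 0.01, 0.00, −0.13 and −0.14.

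The medians of the other cell type lists were smaller in size than that of all acinar genes (−1.08). The pancreatic duct median of −0.32 was close to that of the acinar proteases (−0.34). Duct genes were lower in mean in all 7 cases, as were 6593 of all 14860 genes. At an unadjusted p under 0.05 in limma, 6 of the 7 were lower, where 3.99% of all genes were. Groups did not overlap for 4 of the 7, and for 4.93% of all genes. Muc1 was the 1 call (14.3%, against 0.188% of all genes). Sox9, a duct transcription factor, read 9.05 to 9.18 in WT HFD and 9.34 to 9.56 in WT CD islets (−0.32, SE 0.08, limma adjusted p = 0.154; 0.0236 over the 2 WT groups). Leukocyte genes had a median of −0.17 with 0 of 19 called, and stellate cell and fibroblast genes −0.17 with 0 of 14. Endothelial, Schwann, adipocyte, red blood cell and intestinal lists had medians between −0.02 and 0.05 and 0 calls. Decorin (Dcn), a matrix proteoglycan of fibroblasts, read 9.74, 9.50, 9.71 and 10.77 in WT HFD islets and 10.50, 11.00, 11.13, 12.46 and 10.74 in WT CD islets (−1.23, SE 0.41, limma adjusted p = 0.336), where WT HFD 16 lies inside the WT CD range. With the acinar enzyme mean as a covariate the Dcn difference was −1.10 (SE 0.74). Leaving out WT CD 14, WT HFD 16 and KO CD 13, a choice made after these values were seen, gave 27 calls (3 higher, 24 lower), of which 21 were among the 28 and 19 were acinar.

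In KO islets, the acinar genes had higher means on the high-fat diet for 35 of the 37, but 12 were called higher and 1 lower. Gnaz read at most 10.11 in KO HFD and 10.56 in KO CD islets, below the lowest WT reading of 11.02. Over all genes 1.45% were called higher in KO HFD than in KO CD islets and 44.6% lower, with a median difference of −0.18, against 0.37 for the acinar genes. The mean of the 37 genes was 11.54 to 12.56 in KO HFD islets (SD 0.58, n = 3) and 11.33 to 12.02 in KO CD islets (SD 0.30, n = 5), which overlap. KO HFD 11, which is not among these arrays, read 11.44, below the KO CD mean of 11.49. Its mean over 10 intestinal epithelium genes was 11.78, against 6.95 to 7.07 in the KO HFD arrays used. It is thus unlike them in tissue content. With KO HFD 11 in the fit, 3 acinar genes were called higher and 0 lower. After median centring, which moves the median of all genes in this comparison to 0.07, the acinar genes called higher numbered 26.

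The genotype by diet interaction, the KO difference minus the WT difference, was called for 32.6% of all genes and was positive and called for 1.45% (4.66% after median centring). Over the 37 acinar genes, 28 were called positive and 1 negative. Of the 28 genes called between the WT groups, 26 passed, the exceptions being Bambi and Oat, or Bambi and Ccdc33 after median centring. These 28 were chosen for their WT difference, which is a term of the interaction, so that this count is a description and no independent support. Spink1 had a diet difference of 0.56 (SE 0.38) among KO mice and an interaction of 2.65 (limma adjusted p = 0.0037), and Cuzd1 differed by 1.12 (SE 0.35) in KO islets, with an interaction of 2.95 (0.0034). Gsto2 differed by −0.16 (SE 0.16) in KO islets, with an interaction of −1.01 (limma adjusted p = 0.0038), while Bambi was 0.42 higher (SE 0.14, adjusted p = 0.0218) in KO HFD than in KO CD islets and its interaction was −0.25 (0.333). Ccdc33 differed by 0.01 (SE 0.10) in KO islets.

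**Figure D5:**
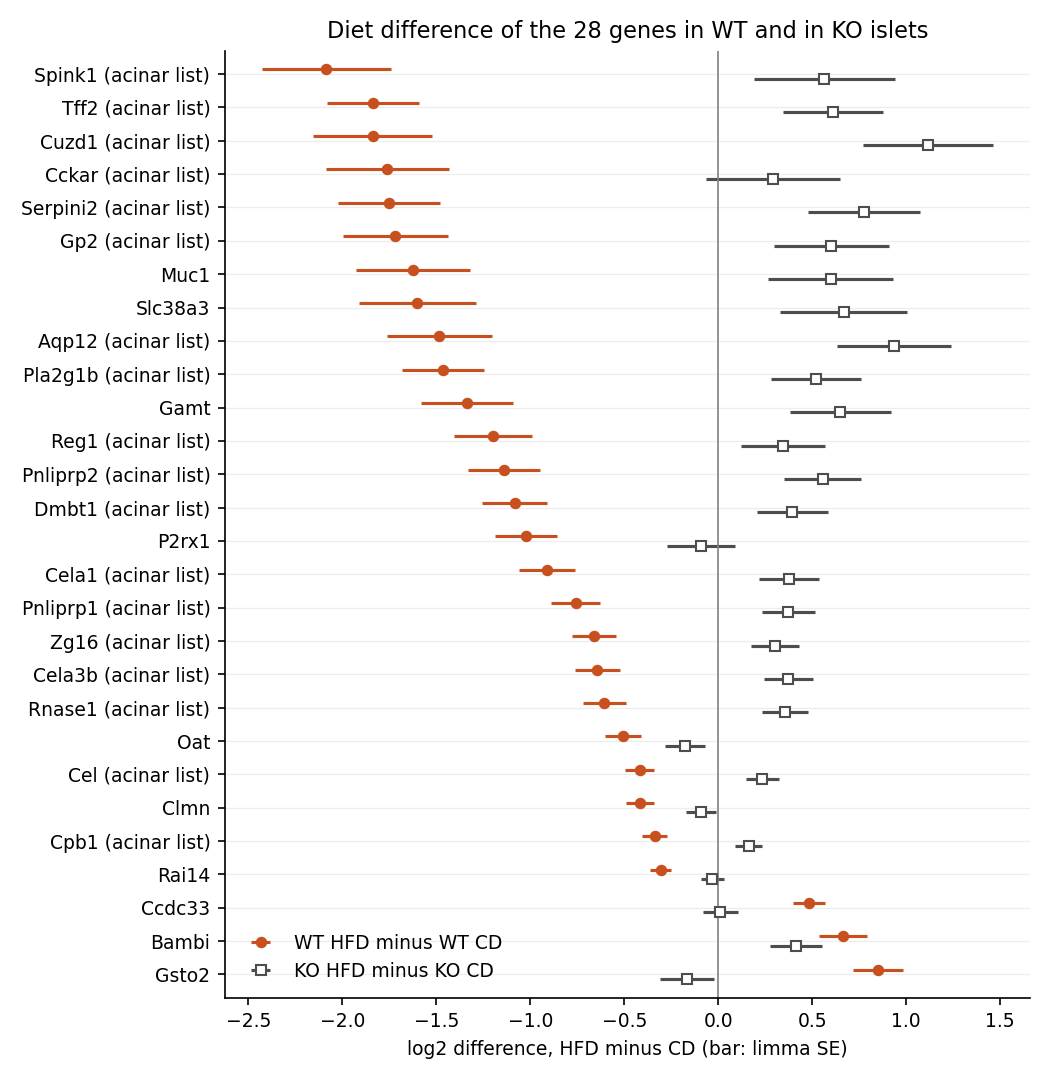
Log2 diet difference of the 28 genes called in WT islets, as WT HFD minus WT CD (filled circles, 4 and 5 arrays) and KO HFD minus KO CD (open squares, 3 and 5 arrays), with bars for the limma SE. The 18 acinar genes have circles left of 0 and squares right of 0, and only Bambi has both symbols well above 0.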

How the data were processed

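Islet RNA was hybridized to Mouse GeneChip Exon 1.0 ST arrays, and the authors made the deposited log2 values by RMA in Affymetrix Expression Console 1.3. The gene-level table (23332 transcript clusters, 18 arrays) was used as deposited, without the exon-level table. Background correction and probe saturation could not be revisited from these values. Clusters with 1 symbol in the platform annotation (14996) were kept, the brightest for each of 14860 genes. Means of 4 groups were fitted with limma 3.58.1 in R 4.3.3 (lmFit, contrasts, eBayes) over 17 arrays, without KO HFD 11, and p-values were adjusted by Benjamini-Hochberg over all genes at 0.05. The study left out 1 KO HFD array without naming it, and earlier work on these data found that its fold changes matched those without KO HFD 11; over all 18 arrays 22 genes were called. In simulated data of this comparison (14860 genes), 85% of 100 genes planted at a log2 difference of 0.5 and 97% of 100 at 1 were recovered, with 8 false calls. The simulated noise was independent between genes, without variation that the genes of an array share. These rates therefore need not hold for the real arrays, and they do not show that uncalled genes differed little. The number of arrays limits the precision.

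The 31 gene lists (444 of 551 entries measured), the genes and the tests were chosen with earlier results of these data known. Named genes were Gsto2, Bambi, Spink1, Tff2 and Gp2, every called gene, up to 4 genes per list with the smallest p, 17 hormone, beta cell and receptor genes of interest where measured, and the 10 largest differences in each direction among genes with an unadjusted p under 0.05 and separate groups. Members of a list named outside this rule (Reg2, Ptf1a, Rbpjl, Prss2, Clps, Cpa1, Ctrb1, Bhlha15 and Rab3d) were chosen after their values were seen. Alternatives were other normalizations, filters, groups of arrays, array weights, an acinar enzyme covariate and leaving out each array. Python 3.11.15, numpy 2.4.6, pandas 2.3.3 and matplotlib 3.10.9 were also used.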

Additional observations from a re-analysis of the deposited data

Results flagged for a closer look

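Single arrays stood far from the rest of their group in 5 of the 60 groups of values looked at, for the 28 called genes and the acinar and beta cell list means. About 1 group in 20 is expected to do so by chance. Aqp12 read 8.26 in WT HFD 16, against 8.85 or more in the other WT HFD arrays. In WT CD 14, Cel read 13.97, Rnase1 13.35 and Zg16 13.61, against at least 14.10, 13.56 and 13.88 in the other WT CD arrays. The beta cell list mean was 11.56 in WT CD 14, against 11.62 or more in the other WT CD arrays. WT CD 14 was also the WT CD array with the highest leukocyte and fibroblast list means, whose part in these values was not tested.

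The genotype by diet interaction of limma passed at an adjusted p under 0.05 for 26 of the 28 genes called in WT islets. Those genes were chosen for the WT difference, which is a term of the interaction, so the count gives no independent support. Over the 37 acinar genes, 28 had a positive interaction that passed and 1 a negative one.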

How the results depend on the processing

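The 28 calls (3 higher, 25 lower) became 177 (43, 134) over the 2 WT groups alone, 439 (136, 303) with array weights, and 0 with the acinar enzyme covariate or at a threshold of 0.01, and the higher calls became 5 after cyclic loess. Leaving out 1 array gave 0 to 137 calls (0 to 16 higher, 0 to 121 lower). The interaction, called for 4849 genes, was called for 1189 after median centring, 1094 after quantile normalization and 1028 after cyclic loess, and for 3547 to 5403 with 1 array left out. The acinar list difference of −1.02 was −1.26 among islets numbered 12 to 18, and −1.09 to −0.92 with 1 array left out, while that of the beta cell list was 0.02 and ranged from −0.005 to 0.04. The acinar genes called higher in KO HFD versus KO CD islets, 12, were 3 over all 18 arrays, 26 after median centring and 20 after cyclic loess, settings chosen after the data were seen. The causes were not tested.

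The log2 differences of the 28 genes gave 794 values under the alternatives. None changed sign, 508 stayed called and 286 did not, 243 of them among the 476 with 1 array left out. None of the 28 was called with the covariate. For that fit the 18 acinar genes are not among these values, although the covariate is built only from the 14 acinar enzyme genes, of which 8 were called. Weights, the 2-group fit, the dim-gene filter, eBayes with trend and the title-number block lost none of the 28. No paired analysis was possible because no title number occurs in both diet groups, and the exon-level records that repeat the numbers are the same mice.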
